A study of Mus musculus with 12 samples.

Results

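Sense-overlapping long noncoding RNAs (lncRNAs) are transcribed from the same strand as a host gene and lie within its locus, either sharing exons with it (exon sense-overlapping) or sitting inside an intron (intron sense-overlapping). Of the 31549 lncRNA transcripts in the deposited table, 4444 had such a relationship label and a length of at least 200 nt, 3792 of them exon and 652 intron sense-overlapping. They carried 3100 host names, and the names of 3894 matched a single gene of the mRNA table, 455 matched none and 95 matched several. A mean of at least 0.1 FPKM (fragments per kilobase of transcript, scaled to the mapped fragments of the library, a level corrected for length and depth) was reached by 2289 of them, 1955 exon and 334 intron members, and these entered the test. For 1988 of these the host gene was tested too, giving 1687 exon and 301 intron pairs with 1663 hosts, all annotated as protein-coding.

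RNA came from the basolateral amygdala, the part of the amygdala required for learned fear, of male C57BL/6J mice aged 10 weeks, with 3 mice in each of 4 groups. In group F a tone was paired with shock, in group E this fear conditioning was followed by extinction (the tone alone), and in group RE a single reminder of the tone came before extinction. Control mice heard the tone without shock and were sampled alongside F, so that the day of sampling and the training cannot be told apart when E or RE is set against control or F. All groups were of the same strain, sex and age, and the tissue label is the amygdala.

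Transcripts of this class arise in several ways. Some are splice forms of a coding gene that keep an intron or lose the reading frame, some are independent RNAs nested in an intron with a promoter of their own, and some are fragments or copies of abundant small RNAs annotated inside long genes. Peg13, an imprinted brain RNA transcribed inside Trappc9, is a well studied nested example in mouse. Exon sense-overlapping transcripts share sequence and strand with the host, so that reads from a shared exon can only be apportioned between both by an estimate, also in a library that keeps the strand.

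Exon structures were available for 1046 of the 1157 members taken from Ensembl and RefSeq, and 466 of these were tested, matched the listed length within 50 nt and had a coding host transcript. The 284 exon members had a median of 99.9% of their bases inside exons of the host's coding transcripts, and 140 had no base outside them. The start of 219 (77.1%) lay within 100 nt of a start of the host. The 182 intron members had a median of 0% of their bases in host exons and a median distance of 26200 nt to the nearest host start, and none started within 100 nt of one (0 of 182). Single-exon transcripts made up 5.63% of the exon and 40.1% of the intron members. An exon member is illustrated by NR_028053, a noncoding transcript of Ngrn, whose first exon includes 397 bases past the end of a coding exon (chr7:80261424-80261820, plus strand, GRCm38.p6) that no coding transcript of Ngrn contains. The stretch is shown because it holds the only bases that set this transcript apart from its host: the lower-case bases are shared with the host and the capitals, from the first base past the coding exon, are not (chr7:80261394-80261483, RefSeq).
Ngrn NR_028053: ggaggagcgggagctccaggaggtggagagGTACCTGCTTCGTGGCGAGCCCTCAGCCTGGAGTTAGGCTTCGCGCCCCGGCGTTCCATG

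Among the intron members were 66 of the 68 transcripts that the table types as misc_RNA. Of these 68, 53 had at least 60% of their bases identical to Rn7sk, the mouse 7SK RNA, an abundant small nuclear RNA that regulates transcription elongation, in a pairwise alignment. They lay in 53 different hosts, and 39 were tested. The copies below are shown to let their likeness to 7SK be seen. Capitals mark bases that differ from Rn7sk in the stretch aligned to its first 100 bases, and deleted bases are not marked (GENCODE M21, GRCm38). Gm26315 lies in an intron of Celf2, which encodes an RNA-binding splicing regulator (chr2:7076315-7076414, minus strand), Gm25780 in Plekha5 (chr6:140530963-140531062, plus strand), and Gm25363 in Rheb, which encodes a small GTPase that activates mTORC1 (chr5:24820762-24820837, minus strand). Rn7sk itself is at chr9:78175534-78175633, minus strand.
Rn7sk: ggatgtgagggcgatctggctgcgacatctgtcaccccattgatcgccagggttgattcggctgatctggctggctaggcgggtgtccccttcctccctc
Gm26315: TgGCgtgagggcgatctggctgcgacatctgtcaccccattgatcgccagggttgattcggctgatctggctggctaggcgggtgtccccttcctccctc
Gm25780: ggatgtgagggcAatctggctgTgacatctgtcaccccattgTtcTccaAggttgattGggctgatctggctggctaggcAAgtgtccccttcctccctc
Gm25363: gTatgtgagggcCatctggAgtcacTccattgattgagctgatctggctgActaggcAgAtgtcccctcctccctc

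Gm26315 differed from Rn7sk at 3 of these 100 bases and was 86% identical over its whole 321 nt. Its level was 85.3, 33.5 and 84.9 FPKM in control, 28, 38.6 and 53.6 in F, 32.7, 32.3 and 55.4 in E, and 60, 23 and 77.1 in RE. The groups overlapped, and its mean of 50.4 FPKM was the highest of the 39 tested copies, followed by 5.32, with a median of 1.29. Rn7sk, which is not a member, was listed at 37800 to 66000 FPKM, so that Gm26315 stood at 0.44 to 1.56 per 1000 of it. Values of such near-identical copies are uncertain, since reads of 7SK could have been placed at them; how far this happened was not tested.

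Another intron member, Peg13 (NR_002864, chromosome 15), is shown with the sequence around its start, from 250 bases before to 50 after it (chr15:72810275-72810574, minus strand, GRCm38.p6), as a nested transcript whose start lies 245486 nt from the nearest start of its host. CpG dinucleotides are in capitals, since Peg13 is known for a methylated start region. This window holds 15 CpG, and 35.2% of 27025 RefSeq promoters of the same length hold at least as many. The median was 7 over all promoters and 20 over the 2171 promoters of host genes.
Peg13: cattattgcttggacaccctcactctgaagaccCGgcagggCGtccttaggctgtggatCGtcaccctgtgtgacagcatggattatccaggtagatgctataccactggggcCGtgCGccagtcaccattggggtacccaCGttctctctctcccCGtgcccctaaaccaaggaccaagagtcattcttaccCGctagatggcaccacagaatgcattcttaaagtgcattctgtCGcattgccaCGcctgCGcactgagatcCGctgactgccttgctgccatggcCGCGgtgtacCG

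Depth ran from 7653926 to 23167325 mRNA fragments per library, and the 4444 members together held 321379 to 828075 fragments, 21.8 to 39.5% of the lncRNA fragments. Control 2, F 1, E 2 and RE 4 stood apart from the other 8 libraries in some features, and results that rest on them are given with and without them. In depth (12542967 to 18921640 mRNA fragments) and member share (21.8 to 29.4%) they overlapped the others. The mitochondrial gene mt-Nd1 was at 1310 to 1610 FPKM in these 4 and at 2680 or more in the others. Transcripts TCONS_00013351 and TCONS_00013353, described below, were at 0 in these 4 alone. The reason was not tested. Pyramidal neurons are the main cell of this nucleus. Of their 12 listed markers, Slc17a7 (162 to 388 FPKM), Camk2a (431 to 696) and Lmo3 (61.1 to 144) were high in all libraries, whereas Rspo1 was low (0.737 to 4.23). The summed level of 11 markers of striatal spiny neurons ranged from 339 to 1490 FPKM within the control group. The p-values below measure the spread between 3 mice per group.

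Members were mostly far below their hosts. The median level was 0.828 FPKM for exon and 1.02 for intron members, against 11.3 FPKM for the hosts of all pairs. The median log2 ratio of lncRNA to host was -3.48 for exon and -3.95 for intron pairs, and the lncRNA was above its host in 113 of 1988 pairs. Across pairs, which are not independent replicates and share their library, the levels of lncRNA and host ranked together with Spearman's rho of 0.322 for exon and 0.392 for intron pairs. The same measure was -0.0389 for natural antisense and 0.0665 for bidirectional pairs. Only 117 members reached a mean of 10 FPKM.

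**Figure D1:**
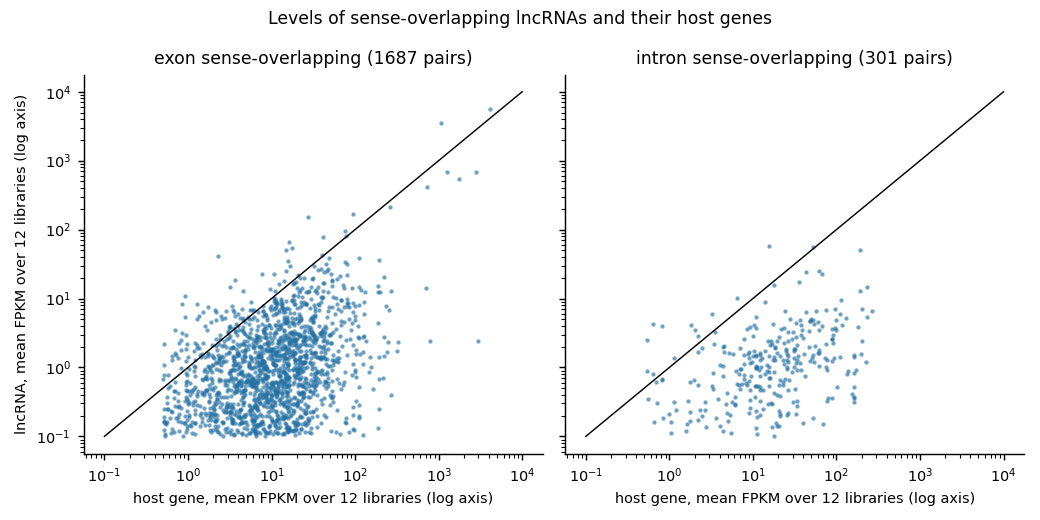
Mean level of each lncRNA (vertical axis, FPKM, log scale) against that of its host gene (horizontal axis, FPKM, log scale) over 12 libraries, for 1687 exon and 301 intron sense-overlapping pairs; the line marks equal levels. Most points lie below the line, and 113 lie above it.

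The highest members were mitochondrial. DQ539915, listed as a noncoding transcript of mt-Co1 (a catalytic subunit of cytochrome oxidase), had 235, 2280 and 12400 FPKM in control, 2450, 2360 and 191 in F, 12700, 586 and 2760 in E, and 12600, 5390 and 12700 in RE. The host mt-Co1 had 8780, 4990 and below 0.01 in control, 3950, 6350 and 8680 in F, 9.76, 6830 and 7020 in E, and 3.45, 3180 and below 0.01 in RE. Where the lncRNA was at its highest, in control 3, E 1, RE 3 and RE 5, the host was at its lowest, and in the other libraries both had values. The sum of both ran from 6410 to 12700 FPKM, a 1.98-fold range. Atpase6, listed as a lncRNA with mt-Atp8 as its host, ran from 142 to 9540 FPKM and was also highest in those 4 libraries. There mt-Atp8 was high too, at 5010 (control 3), 4220 (E 1), 835 (RE 3) and 2110 FPKM (RE 5), against 259 or less elsewhere. In this pair lncRNA and host were thus high in the same libraries, unlike in mt-Co1.

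Other abundant members differed in how steady they were. Cytb, listed as a lncRNA in the mt-Nd5 locus, ran from 545 to 803 FPKM, and 2900097C17Rik, listed with itself as host, from 245 to 369. XLOC_010189 transcripts TCONS_00013351 and TCONS_00013353, in an intron of Gm21946 on chromosome 17, were at 0 in control 2, F 1, E 2 and RE 4 and reached 7070 and 1660 FPKM in control 1. These are the 4 libraries that stood apart, 1 in each group. The host Gm21946 was at 0 FPKM in all 12 libraries, and the origin of the reads at these 2 transcripts was not tested.

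Other intron members were steadier. AK043847 (uc007smc.1), in an intron of Kcnma1, the pore-forming subunit of the BK potassium channel, had 57.5, 46 and 61.7 FPKM in control, 53.9, 62.8 and 64.7 in F, 46.4, 50.8 and 52.5 in E, and 57.6, 59.1 and 65.5 in RE. Kcnma1 itself lay between 45.5 and 58.2 FPKM, so that lncRNA and host were at the same level. Peg13 had 56.1, 58.4 and 50.6 FPKM in control, 57.8, 56.3 and 56.9 in F, 57.5, 66 and 57 in E, and 61.5, 63.7 and 56.4 in RE. Its host Trappc9, which encodes a subunit of a vesicle trafficking complex, lay between 12.6 and 21.4 FPKM, below Peg13 in every library. For Peg13, the log2 fold changes in the 6 comparisons lay between 0.01 and 0.14, each with an SE of 0.12.

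Among myelin hosts, the lncRNA of Mobp (uc009scm.1), a gene for a structural protein of central myelin, was above its host in all libraries: it had 149, 162 and 133 FPKM in control, 74.6, 90.5 and 133 in F, 182, 153 and 157 in E, and 331, 100 and 184 in RE, where Mobp had between 15.7 and 58.3. The 3 E values lay above the 3 F values. The log2 fold change for E against F was 0.76 with an SE of 0.36 for the lncRNA (limma, adjusted p = 0.764) and 0.57 with an SE of 0.36 for the host (adjusted p = 0.641).

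Most values of exon members were not whole numbers of fragments. Of their values above 0, 18.4% were within 0.05 of a whole number above 0, against 82.3% for intron members, 74.5% for natural antisense and 63.8% for intergenic lncRNAs. Values just above 0 fragments were kept and counted as not whole, and how far they lower each share was not tested. The hosts showed the same split: 33.9% of the values of 1446 hosts of exon members were whole, 90% for the 217 genes that hosted intron members alone and 96.1% for 11854 genes that hosted none. The lncRNA and host had the same locus string in 98.3% of pairs. The share of whole values was not used to choose the members.

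**Figure D2:**
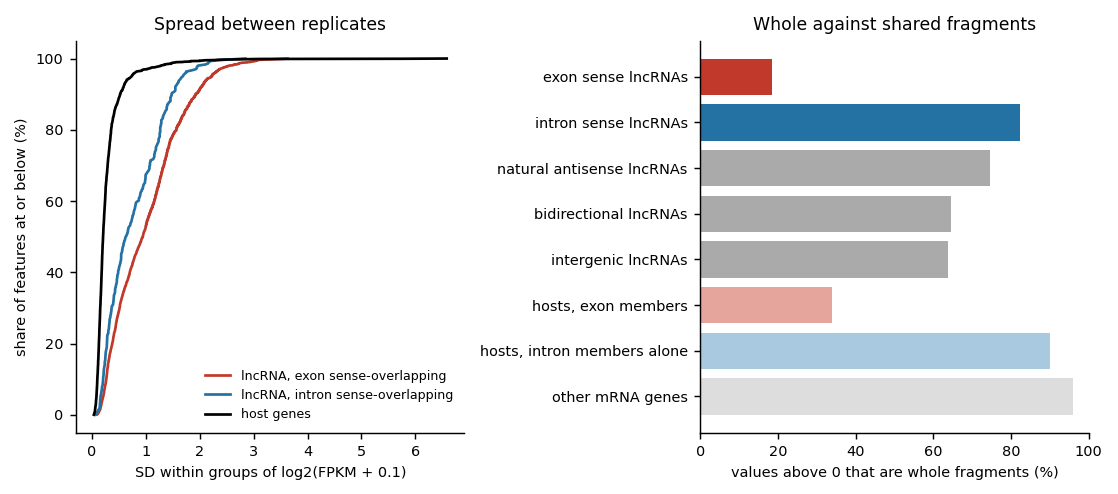
Left, cumulative share of features (%) by the SD within groups of log2(FPKM + 0.1) for lncRNAs of exon and intron pairs and for host genes; right, share of values above 0 that were whole fragments (%), by class. Exon members lie farthest to the right, with a median SD of 0.946, and only 18.4% of their values were whole.

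The spread between replicates was wide. The median SD within groups on the log2(FPKM + 0.1) scale was 0.919 for exon members, 0.675 for intron members, 0.576 for intergenic lncRNAs and 0.217 for mRNA genes. In 90.1% of exon and 90% of intron pairs it was larger for the lncRNA than for the host. Of the 1479 exon members that reached 1 FPKM in a library, 656 (44.4%) were below 0.01 FPKM in another, as were 86 of 260 intron members (33.1%) and 26.7% of intergenic lncRNAs. Of these 742 members, 636 (85.7%) switched in this way between libraries of the same group. Only 9 were below 0.01 in all libraries of a group and at least 1 FPKM in all libraries of another. Exon members without a base outside host exons had a median SD of 1 (140 transcripts), those with 1 to 200 bases outside had 1.13 (49 transcripts), and those with over 200 bases outside had 0.816 (95 transcripts).

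No sense-overlapping lncRNA passed the test in any of the 6 comparisons (limma on log2(FPKM + 0.1), adjusted p under 0.05). The share of all 9408 lncRNAs that passed was 0.0531% in RE against E and 0% in the others. At an unadjusted p under 0.05, 106 members were found for F against control (4.63%, with 4.13% of all lncRNAs), 126 for E against control (5.5% with 4.42%), 148 for RE against control (6.47% with 6.2%), 163 for RE against E (7.12% with 7.16%), 143 for E against F (6.25% with 6.59%) and 128 for RE against F (5.59% with 4.86%). Members were thus near the background in each. Counting members whose groups did not overlap gave 208 for F against control (9.09%, with 8.96% of all lncRNAs), 218 for E against control (9.52% with 9.22%), 234 for RE against control (10.2% with 11.5%), 238 for RE against E (10.4% with 11.9%), 271 for E against F (11.8% with 12.5%) and 208 for RE against F (9.09% with 9.65%).

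Other tools gave other counts. On the recovered fragments, edgeR called 0 members in every comparison, with 0.0425% of all lncRNAs in RE against E and 0% elsewhere. DESeq2 leaves lncRNAs with low counts without an adjusted p, and its shares are taken over the rest. It called 11 of 1604 members in F against control (0.686%, with 0.479% of the 5847 lncRNAs given an adjusted p), 7 of 1706 in E against control (0.41% with 0.157%), 14 of 1567 in RE against control (0.893% with 0.759%), 19 of 1604 in RE against E (1.18% with 0.872%), 15 of 1640 in E against F (0.915% with 0.647%) and 14 of 1949 in RE against F (0.718% with 0.248%). The share of members was the higher of both in each comparison by this tool, and the difference was not tested. Without control 2, F 1, E 2 and RE 4, limma called 6, 11, 9, 9, 6 and 3 of 2289 members in this order, with 0.138, 0.319, 0.191, 0.266, 0.17 and 0.0744% of all lncRNAs. Here too the share of members was the higher of both in each comparison, and the difference was not tested.

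The ratio of lncRNA to host did not pass in any comparison either, with 0 of 1988 pairs and 0% of all 4521 pairs of any class. At an unadjusted p under 0.05 there were 72 pairs in F against control (3.62%, with 3.52% of all pairs), 106 in E against control (5.33% with 4.47%), 87 in RE against control (4.38% with 4.2%), 121 in RE against E (6.09% with 5.55%), 99 in E against F (4.98% with 4.93%) and 112 in RE against F (5.63% with 4.51%). The median change of members lay between -0.055 (RE against E, all lncRNAs -0.04) and 0.058 (E against F, all lncRNAs 0.05) on the log2 scale.

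Of the host genes, 7 of 1663 passed in RE against E (0.421%, with 0.614% of all mRNA genes), 1 passed in E against F (0.0601%, with 0.0814%), and none passed in the other 4 comparisons (0 of 1663, with 0.0666% of all genes for RE against control and 0% for the rest). The share of hosts was under that of all genes in RE against E, E against F and RE against control. The 7 calls moved with the libraries included: 0 hosts were called without E 1, E 2 or RE 5, 1 without RE 3 or RE 4, and 8 without E 3. Of the 7, those called without E 3 were Dkk3, Nos1ap, Rxfp1 and Satb1, Cacng5 was called without RE 4 alone, and Pecam1 and Extl1 missed the threshold whichever of the 6 libraries was left out. In E against F, 0 were called without any 1 of F 1, F 2, F 3, E 1 and E 2, and 4, Galnt9 among them, without E 3. The shares of all genes called in these fits are not given here, so these moves are not read as particular to hosts.

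On the recovered fragments, edgeR called 14 hosts in RE against control (0.88% of all genes), 18 in RE against E (1.28%) and 9 in E against F (0.666%), among them the 7 and the 1, and 0 in F against control (0.0074%), E against control (0.037%) and RE against F (0%). DESeq2 called 18 in F against control (1.15% of the genes it gave an adjusted p), 4 in E against control (0.244%), 50 in RE against control (3.28%), 56 in RE against E (3.55%), 56 in E against F (3.58%) and 6 in RE against F (0.333%). When limma was given a factor for control 2, F 1, E 2 and RE 4, it called 18 in RE against control (1.24%), 25 in RE against E (1.54%), 12 in E against F (0.954%) and 0 in the others (0.0148% of all genes in E against control, 0% in both remaining). Without those 4 libraries it called 1 in RE against control (0.0222%), 1 in RE against E (0.2%) and 0 in the others (0.0074% in RE against F, 0% in the rest).

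Dkk3, which encodes a secreted protein of the Dickkopf family, was higher in RE than in E. It had 14.2, 17.2 and 26.8 FPKM in E and 42.3, 41.2 and 36.6 in RE, with no overlap, a log2 fold change of 1.09 with an SE of 0.18 and an adjusted p of 0.0361 (limma). Control had 18.5, 21 and 17.9 FPKM and F 34.1, 36 and 34. Its exon sense-overlapping lncRNA of 231 nt (uc009jgk.1) had 1.68, below 0.01 and 18.8 FPKM in E and 16.1, 15.3 and 19.4 in RE, so that the groups overlapped through E 3. The lncRNA rested on 33.2 fragments at most in any library. Its log2 fold change was 3.5 with an SE of 1.38 (adjusted p = 0.667).

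Nos1ap, an adaptor of neuronal nitric oxide synthase, had 22.5, 27.2 and 28.9 FPKM in E and 37.8, 38.2 and 44.5 in RE (log2 fold change 0.62, SE 0.11, limma adjusted p = 0.0398). Nos1ap had 27.2, 31.9 and 28.7 FPKM in control and 38.5, 39.5 and 40.1 in F. Its lncRNA of 5515 nt (uc007dme.1) had 9.65, 9.48 and 11.1 FPKM in E and 17.4, 17.7 and 15.9 in RE. Here the lncRNA did not overlap between the groups either, with a log2 fold change of 0.75 and an SE of 0.2 (limma, adjusted p = 0.373). DESeq2 called it in this comparison and in F against control, RE against control and E against F. The change of the ratio was 0.13 with an SE of 0.21.

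Satb1, a chromatin organiser, had 16.3, 14.3 and 23.9 FPKM in E and 33.5, 31.7 and 35.8 in RE (log2 fold change 0.92, SE 0.18, limma adjusted p = 0.0457). Satb1 had 16.6, 17.9 and 17.1 FPKM in control and 21.6, 30.8 and 31 in F. AK088368 (uc008czh.1), in an intron of Satb1, had 0.521, 0.158 and 0.723 FPKM in E and 0.819, 1.22 and 0.867 in RE, which rested on 9 to 64 fragments per library. Its log2 fold change was 1.05 with an SE of 0.44 (adjusted p = 0.692), and the groups did not overlap. Rxfp1, a receptor for relaxin, was higher by 1.06 with an SE of 0.19 (adjusted p = 0.04), and Gm26984 in its intron by 0.36 with an SE of 0.44. Extl1, a glycosyltransferase of the exostosin family, was higher by 0.51 with an SE of 0.1 (limma adjusted p = 0.0435). Its lncRNA (uc008vex.2) had a change of -0.81 with an SE of 0.93. Means in control, F, E and RE were 3, 4.17, 2.57 and 5.33 FPKM for Rxfp1 and 8.3, 10.9, 8.4 and 12 for Extl1.

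Pecam1 and Cacng5 were lower in RE. Pecam1, an adhesion molecule of endothelial cells, had 8.62, 7.2 and 6.65 FPKM in E and 2.43, 3.01 and 3.91 in RE (log2 fold change -1.26, SE 0.24, limma adjusted p = 0.0435). Its lncRNA (2_00005967) was above 0.01 FPKM only in control 2, F 2 and E 1, with 1.44 at most. The summed level of 10 endothelial markers, of which Pecam1 is a member, was 75.6 to 96.8 FPKM in E and 51.2 to 63.8 in RE; its part in the result was not tested. Cacng5, which encodes an auxiliary subunit of AMPA receptors, had 8.19, 8.24 and 7.31 FPKM in E and 2.18, 4.32 and 4.18 in RE (-1.19, SE 0.22, adjusted p = 0.0422). Its lncRNA (uc007mbd.1) was at 0.747 FPKM or lower throughout. Means in control and F were 4.4 and 5.09 FPKM for Pecam1 and 6.41 and 5.08 for Cacng5. In bulk tissue, fewer cells of a type and less RNA per cell cannot be told apart.

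Galnt9, a transferase that starts O-linked glycosylation, was lower in E than in F, with 22.7, 22.9 and 22.3 FPKM in F and 10.6, 10 and 14.3 in E (log2 fold change -0.97, SE 0.14, limma adjusted p = 0.0469). Control had 11.7, 15.8 and 12.3 FPKM, overlapping E, and RE had 16.9, 18.6 and 17.5. All F values thus lay above those of every other group. DESeq2 also called Galnt9 in F against control. Its lncRNA (uc008yra.2) was below 0.01 FPKM in all F libraries and at 0.402 in E 2, the only E library above 0.01. Summed markers of excitatory pyramidal neurons were 965 to 1180 FPKM in E, 1460 to 1570 in F and 1430 to 1530 in RE, without overlap between E and either group. GABAergic markers were at 475 to 486 FPKM in E, 411 to 439 in F and 398 to 457 in RE, and the endothelial markers were at 62.9 to 72.2 in F, again without overlap between E and either group. Hypothalamic markers did not overlap between E (92.4 to 137) and RE (46.3 to 77.7), and between E and F neither did striatal (1050 to 1320 in E, 387 to 982 in F) nor microglial markers (143 to 172 in E, 131 to 142 in F). The part of these cell markers in the changes of Galnt9, Dkk3, Nos1ap, Satb1, Rxfp1, Extl1 and Cacng5 was not tested.

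**Figure D3:**
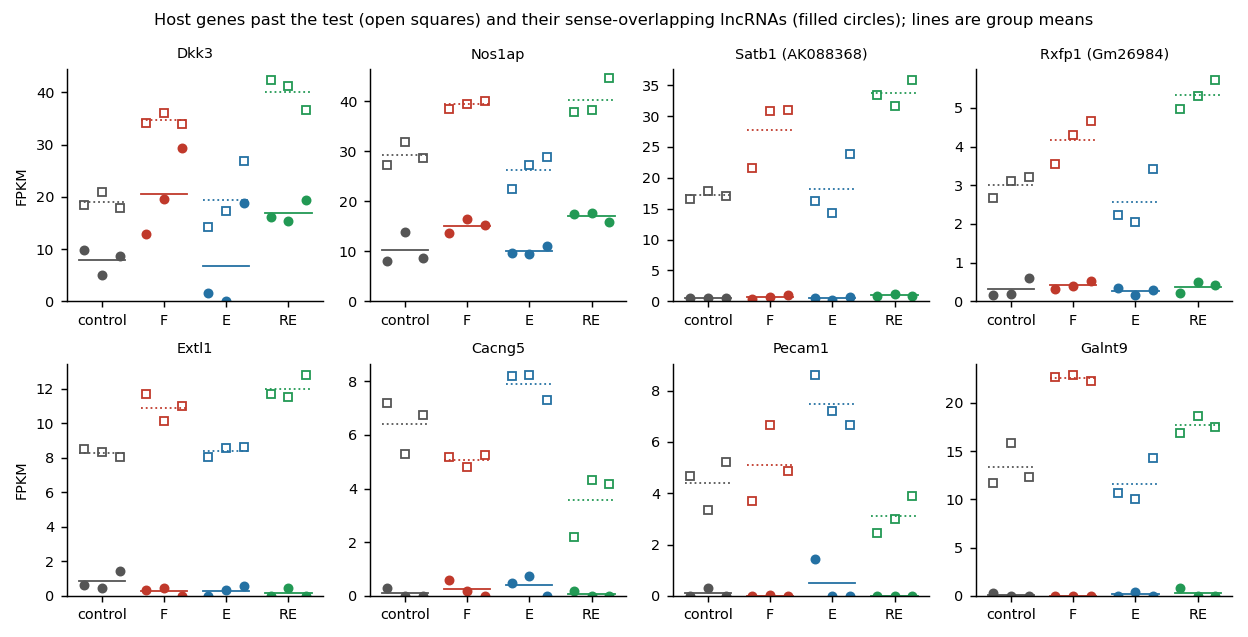
FPKM (vertical axis, from 0) of the 8 host genes past the test (open squares, dotted group mean) and of 1 sense-overlapping lncRNA of each (filled circles, solid group mean) in every library of control, F, E and RE. The 3 RE values of Dkk3, Nos1ap, Satb1, Rxfp1 and Extl1 lie above the 3 E values, and those of Pecam1 and Cacng5 below.

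Among the lncRNAs with the smallest p-values, none of which passed limma's test after adjustment, was AK088937 (uc008cvn.1), of 4492 nt in an intron of Ccnd3, the gene for cyclin D3. It had 0.373, 0.261 and 0.208 FPKM in control, 0.824, 1.1 and 1.1 in F, 0.793, 0.775 and 1.12 in E, and 0.874, 1.15 and 1.06 in RE. All 9 trained libraries lay above all 3 control libraries. The log2 fold changes were 1.55 for F, 1.39 for E and 1.58 for RE against control, each with an SE of 0.27 (limma, adjusted p = 0.535, 0.639 and 0.194); they share the control libraries. It rested on whole fragments, 15 to 87 per library. DESeq2 called it in each of the 3 comparisons (adjusted p = 0.000174, 0.00425 and 3.91e-05), and edgeR did not (0.51, 1 and 0.163). The host Ccnd3 changed by 0.29, -0.11 and 0.16 with an SE of 0.2, and its groups overlapped.

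The noncoding Ngrn transcript NR_028053, whose own stretch is printed above, was either near 0 or above 5 FPKM. Ngrn encodes neugrin, known from human cells for a role in mitochondrial ribosome assembly. The lncRNA was at 0.00647, 0.0122 and 0.011 FPKM in control, 8.77, 6.69 and 6.67 in F, 0.0194, 8.71 and 0.0118 in E, and 7.42, 5.85 and 5.25 in RE. It was thus on in all of F and RE and in E 2 and off in all of control and in E 1 and E 3. The host Ngrn had 11, 20.8 and 12.1 FPKM in control and 7.72, 6.93 and 5.54 in F, and its lower values fell in the libraries where the lncRNA was on: 4.47 in E 2, with 14.1 and 12.4 in E 1 and E 3. The sum of both was 14.6 ± 5.33 FPKM (SD, n = 3) in control, 14.1 ± 2.18 in F, 13.2 ± 0.885 in E and 11.8 ± 2.41 in RE. The fitted log2 fold change for F against control was 6.08 with an SE of 1.3 for the lncRNA (limma, adjusted p = 0.535), which depends on the pseudocount since control was near 0, and -1.06 with an SE of 0.41 for the host (adjusted p = 0.583). Without control 2, F 1, E 2 and RE 4 limma called this transcript in F against control, RE against control, RE against E and E against F, where E 2 is the E library in which it was on.

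**Figure D4:**
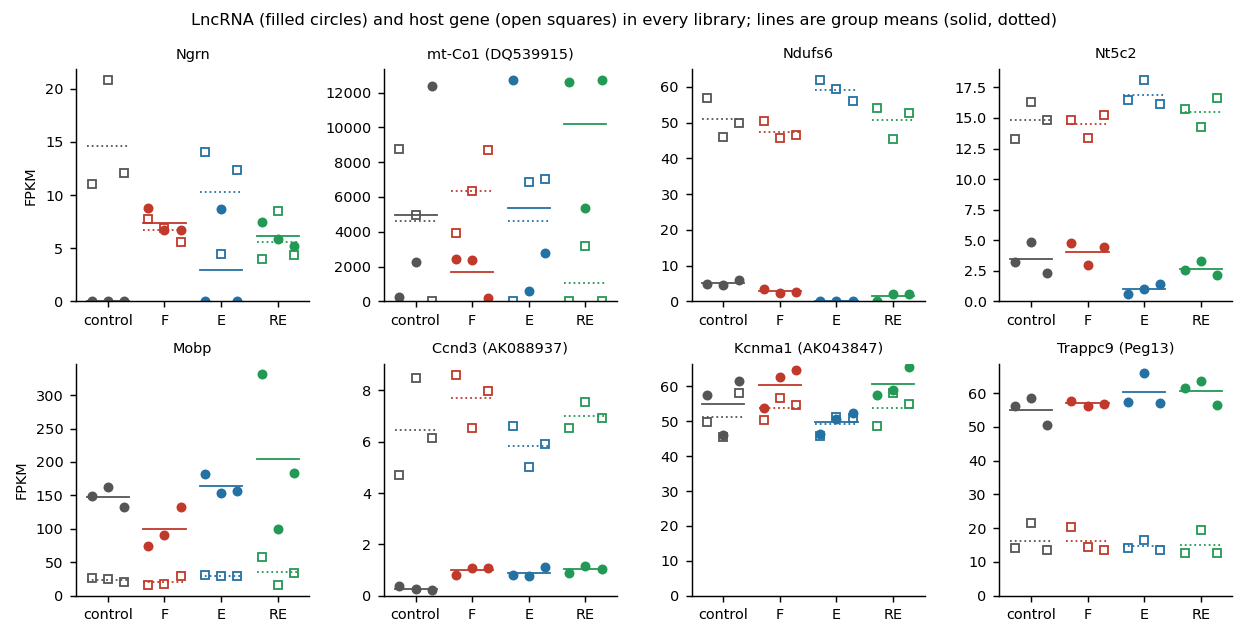
FPKM (vertical axis, from 0) of a lncRNA (filled circles, solid group mean) and its host gene (open squares, dotted group mean) in every library of control, F, E and RE for 8 pairs. In Ngrn and mt-Co1 the lncRNA was high where the host was low, whereas AK088937 was higher in all 9 trained libraries than in control with Ccnd3 overlapping, and Peg13 stood above Trappc9 throughout.

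Some exon members had their lowest values in E. Those of Ndufs6 (NR_033306), a subunit of respiratory complex I, were 4.71, 4.43 and 5.83 FPKM in control, 3.45, 2.33 and 2.61 in F, below 0.01 in all of E, and below 0.01, 1.92 and 2.17 in RE. In fragments this was 26.4 to 57.2 in control. Its fitted log2 fold change, which depends on the pseudocount since E was near 0, was -5.65 with an SE of 0.93 for E against control (limma, adjusted p = 0.439) and -4.83 with an SE of 0.93 for E against F (adjusted p = 0.206). The host Ndufs6 had 61.8, 59.4 and 56 FPKM in E and 45.6 to 50.3 in F, and its sum with the lncRNA was 59.1 ± 2.95 FPKM (SD, n = 3) in E and 50.3 ± 3.05 in F. For Nt5c2 (NR_028353), a purine nucleotidase, the lncRNA had 0.569, 1.02 and 1.45 FPKM in E and 4.76, 2.93 and 4.44 in F (log2 fold change -1.95, SE 0.36, limma adjusted p = 0.206). The change of its ratio to the host was -2.17 with an SE of 0.38 (adjusted p = 0.363). DESeq2 called both transcripts in E against control, RE against E and E against F. In the annotation used, neither transcript has a base or a splice junction that the coding transcripts of its host lack (0 for both).

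In the comparison of RE with E, the rule for named members, which required groups without overlap, also gave those of Adamts6 (uc011zeh.1), a secreted metalloprotease, and Zfp618 (uc008tfo.2, AB346163), and AK042126 (uc008wpx.1) in 5031425E22Rik. Adamts6 uc011zeh.1 had 2.44, 2.8 and 1.94 FPKM in E, 0.753, 0.994 and 0.866 in RE, 1.96, 1.84 and 2.35 in control and 0.855, 1.43 and 0.746 in F. Its log2 fold change was -1.35 with an SE of 0.26 for RE against E (limma, adjusted p = 0.16) and 1.2 with an SE of 0.26 for E against F (adjusted p = 0.286). Zfp618 uc008tfo.2 was at 1.35, 1.12 and 0.782 FPKM in E and 0.309, 0.271 and 0.328 in RE, a change of -1.53 with an SE of 0.31 (adjusted p = 0.211). AK042126 had 2.47 ± 0.467 FPKM (SD, n = 3) in E and 1.1 ± 0.1 in RE, with a change of -1.08, an SE of 0.2 and an adjusted p of 0.16. DESeq2 called uc011zeh.1 and uc008tfo.2 in RE against E, and not AK042126. The hosts Adamts6 and Zfp618 were also lower in RE without overlap. Adamts6 had 2.11, 1.61 and 1.69 FPKM in E and 1.17, 1.23 and 1.27 in RE. Zfp618 had 3.77, 4.4 and 3.22 FPKM in E and 1.16, 2.81 and 2.1 in RE. DESeq2 called Zfp618 in this comparison, and limma did not. The host 5031425E22Rik overlapped, with 5.07, 5.32 and 2.77 FPKM in E and 1.4, 3.73 and 4.84 in RE.

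The remaining leading members were chosen by a rule that required groups without overlap, and each missed limma's threshold after adjustment. Of those named here DESeq2 called uc011xmi.1 (F against control), BC031353 (RE against control) and 5430405H02Rik (RE against F). In F against control and RE against control the member chosen was AK192501 in Nkiras2, an inhibitor of NF-kappa-B signalling, and in F against control also uc011xmi.1 in Poc1b. In E against control it was uc008phr.1 in Tsc22d2, in RE against control BC031353 in Fam214a and Gm12981 in Sesn2, a stress-induced leucine sensor, and in E against F 2_00021360 in Plekhf2. In RE against F these were uc007ylc.1 in Thap7, NR_028418 in Taf6l (also in RE against E) and 5430405H02Rik. Their limma adjusted p-values ran from 0.16 (NR_028418, RE against E) to 0.85 (uc008phr.1, E against control), and host changes in those comparisons from -0.49 (Thap7, SE 0.15) to 0.95 (Poc1b, SE 0.32), none past limma's test.

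Changes of members and hosts were set against each other across pairs. Over 1687 exon pairs, Pearson's r between the log2 fold changes of lncRNA and host lay between -0.09 and -0.03 over the 6 comparisons, and 45.9 to 52.6% of pairs moved in the same direction. Across 301 intron pairs it lay between 0.06 and 0.23, with 54.8 to 61.8% in the same direction. For comparison, r was 0 to 0.12 for natural antisense and 0.06 to 0.16 for bidirectional pairs. Pairs are genes of the same libraries and not replicates, so these are descriptions without a p. For the 226 exon pairs with a lncRNA mean of at least 5 FPKM, r lay between -0.3 and 0.16 and Spearman's rho between 0.06 and 0.24, with 54.9 to 59.7% in the same direction. For the 27 such intron pairs r lay between 0.01 and 0.64 and rho between 0.04 and 0.72, with 55.6 to 81.5% in the same direction. Over all pairs rho lay between -0.1 and 0.03 for exon and between 0.11 and 0.25 for intron pairs.

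**Figure D5:**
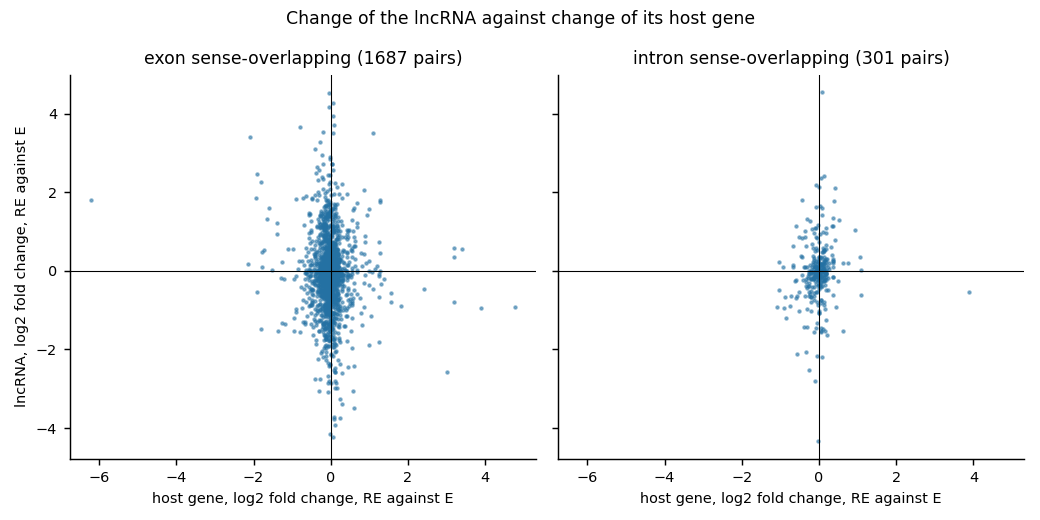
Log2 fold change of the lncRNA (vertical axis) against that of its host gene (horizontal axis) for RE against E, in 1687 exon and 301 intron sense-overlapping pairs. The vertical range exceeds the horizontal range for most points in both panels, with r between -0.09 and -0.03 over the 6 comparisons in exon pairs.

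When each library's deviation from its group mean was taken, r between lncRNA and host across exon pairs was below 0 in all 12 libraries, from -0.17 to -0.06. Across intron pairs it was below 0 in 6 of 12 and ran from -0.09 to 0.15. For natural antisense and for bidirectional pairs it was below 0 in 2 of 12 each. At a lncRNA mean of at least 5 FPKM it was below 0 in 8 of 12 libraries for exon pairs, from -0.23 to 0.1, and in 1 of 12 for intron pairs, from -0.08 to 0.57. At that level it was below 0 in all 12 for 19 bidirectional pairs, from -0.83 to -0.07. For 36 natural antisense pairs it was below 0 in 5 of 12, from -0.7 to 0.71. Values below 0 at that level were thus not particular to exon pairs. Of the 226 exon pairs of at least 5 FPKM, 54% had a sum of lncRNA and host that varied less between replicates than either partner, but so did 48.1% of 27 intron and 58.3% of 36 natural antisense pairs, so that this was not particular to exon pairs.

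Of 50 synaptic and activity genes, 9 hosted 12 tested members (among them Cacna1e, Gria2, Grm5, Kcnma1 and Nrxn3). None of the 50 genes passed limma's test in any comparison (0 higher and 0 lower, with 0.0666% of all genes past it in RE against control, 0.614% in RE against E, 0.0814% in E against F and 0% elsewhere), although Mef2c, a host and a transcription factor of neurons, was called in RE against control and RE against E by DESeq2 and by limma with a factor for the 4 libraries that stood apart. The median change of the 12 lncRNAs ranged from -0.07 (E against F) to 0.15 (F against control). The lncRNA of Grm5 (uc009ifq.1), a glutamate receptor, ran from 25.9 to 40.1 FPKM with Grm5 at 77 to 87.8. In Nrxn3, a presynaptic adhesion molecule, the exon member AK020365 ran from 1.1 (control 2) to 24.7 FPKM, whereas the intron member AK082104 ran from 6.7 to 12.5 and the host from 104 to 127. The 33 myelin genes hosted 5 tested members and the 38 tested immediate early genes 2, in Rheb and Pim1. No myelin or immediate early gene passed limma's test in any comparison (0 for both). Of 22 glucocorticoid-induced genes, 4 rose in RE against control (limma, with 0.0666% of all genes past the test), but no member of theirs was in a tested pair (0 pairs).

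Some hosts carried many members. Gm20388 (chromosome 8), a locus of the table that spans positions 119910360 to 124345724, had 8 tested members, all in introns, with means of 0.133 to 5.42 FPKM and the highest for 2810013P06Rik. Ncald, a neuronal calcium sensor, had 7 intron members between 0.318 and 1.51 FPKM with the host at 162 FPKM. Rabggtb, a subunit of a Rab geranylgeranyl transferase, had 6 exon members of which NR_028094, NR_028095, NR_028096, NR_028097 and NR_028098 were each below 0.01 FPKM in some libraries and up to 2.98 in others, and the host ran from 10.4 to 19.8. Celf2 had 5, among them 5031426D15Rik in an intron at 9.84 to 15 FPKM. Miat, a lncRNA of neurons listed with itself as host, had 20.6, 57.2 and 29.1 FPKM in control, 49, 37.6 and 41.7 in F, 20, 30.3 and 28.9 in E, and 35.5, 41.6 and 39.7 in RE for NR_003718. The 3 RE values lay above the 3 E values, with a log2 fold change of 0.58, an SE of 0.32 and a limma adjusted p of 0.773.

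Hosts also differed from other genes in a readout that the labels did not use. Of 1663 host genes, 24.8% gave circular RNAs with at least 10 back-splice junction reads over all libraries, against 14.1% of 11814 other tested genes. The share was 22.6% for hosts of exon members and 39.2% for hosts of intron members. The hosts were also longer, with a median locus of 50959 nt for exon and 149578 nt for intron members against 35346 nt for other genes. Their median level was higher too, at 11 FPKM for exon and 18 for intron members against 9.09 for other genes. The part of length and level in the difference in circular RNAs was not tested.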

How the data were processed

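Total RNA depleted of ribosomal RNA was sequenced from directional libraries of 12 mice. The deposited lncRNA and mRNA tables hold FPKM values, which the authors made with cutadapt, HISAT2 on mm10 and cuffdiff. The submitters' notes list other tools and a human build (CASAVA 1.8, BWA, hg19), but 87.2% of 2192 associated host transcripts had their GRCm38 positions. The deposited estimated counts had been divided by a factor for each library; this was undone and the fragments were rounded for edgeR 4.0.16 (quasi-likelihood) and DESeq2 1.42.0. The deposited circRNA table holds counts of junction reads. The first line of each transcript was kept. Levels were analysed as log2(FPKM + 0.1) in limma 3.58.1 (R 4.3.3, trend), with 12 libraries and 6 contrasts, for 9408 lncRNAs with a mean of at least 0.1 FPKM and 13517 genes with at least 0.5, and adjusted by Benjamini-Hochberg over all features. This understates changes of low features. The tests were two-sided. The study's methods name edgeR; FPKM are not counts, so limma was the main test. Members and lists were chosen with earlier results of these data known. Named members had a host past the test, or were among the 4 smallest unadjusted p per comparison (log2 fold change of at least 1, 0.5 FPKM in either group, no overlap), the 10 highest, those of the 6 hosts with most members, known lncRNAs, or the 4 highest per host list. Python 3.11.15, numpy 2.4.6, pandas 2.3.3, Biopython 1.88 and matplotlib 3.10.9 were used. The tests were also run on simulated data with known changes. Alternatives were the pseudocount, filter, scaling, samples fitted, replicate block, count tools and leaving out each library. Some items withheld for evaluation are not reported here.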

Additional observations from a re-analysis of the deposited data

How the results depend on the processing

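Counts of members past the test, 0 in each comparison, were 11, 7, 14, 19, 15 and 14 with DESeq2 (F, E and RE against control, RE against E, E against F, RE against F), 6, 11, 9, 9, 6 and 3 without control 2, F 1, E 2 and RE 4, 1, 1, 2 and 1 with 2 groups alone (the first 3 and E against F), and 2, 2, 2 and 1 without a filter (the first 4). Hosts, 7 in RE against E, 1 in E against F and 0 elsewhere, were 18, 4, 50, 56, 56 and 6 with DESeq2. In RE against control, RE against E and E against F they were 14, 18 and 9 with edgeR, 18, 25 and 12 with a term for the 4 libraries, 2, 1 and 0 with 2 groups alone, 1, 2 and 0 without a filter, and 1, 1 and 0 without the 4 libraries. They were 2 and 0 in RE against E and E against F at a mean of at least 1 FPKM, 1 and 4 in RE against control and E against F with a common median, and 1 and 2 with quantile normalization. Log ratios past the test were 2, 1, 2, 1, 2 and 1 without the 4 libraries, and 1, 1, 7, 1 and 1 with 2 groups alone (all but RE against E). The correlation over all member pairs moved from -0.008 to 0.035 in E against F and from -0.056 to -0.101 in RE against E at a mean of at least 1 FPKM, and from -0.075 to -0.118 in E against control without the 4 libraries. The cause was not tested. Where the text gives no share of all features for a setting, its counts describe that setting alone. They are not read as a result about members or hosts.

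Leaving out 1 library at a time gave 0 to 3 members in each comparison but RE against F, which had 0 to 1. Hosts were 0 to 8 in RE against E, 0 to 4 in E against F, 0 to 1 in E against control and in RE against F, and 0 in the other 2. Log ratios were 0 to 3 in F and E against control and 0 to 2 in the others. The correlation was -0.071 to -0.031 in F against control, -0.055 to -0.006 in E against F and -0.095 to 0.019 in RE against control, and lay below 0 in the other 3. With the replicate number as a block, possible for control, F and E, members were 1 in E against control and 1 in E against F, log ratios 1 and 1, and hosts 0 in E against F. The numbers did not pair the samples, since same-numbered libraries deviated with correlations of -0.166 to 0.183. Of 570 values of the 32 single results under alternatives, 475 kept their direction and side of the threshold, 73 lost the threshold, 22 gained it and 0 turned. All 73 were among the 139 values of the 8 host changes past the test.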
